A study of Mus musculus with 8 samples.

Results

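The genes described here encode factors that build ribosomes in the nucleolus. They were all 51 genes, of 19688 in the deposited table, whose symbols match a fixed set of names: the Nop, Utp, Rrp and Nol families, the RNA polymerase I subunits Polr1a to Polr1e, and Bop1, Dkc1, Fbl, Gar1, Imp3, Imp4, Mphosph10, Nhp2, Pes1, Rpf1, Rpf2, Rrs1 and Wdr12. RNA was sequenced from mouse blastocysts, hollow embryos shortly before implantation. There were 3 libraries of blastocysts vitrified (frozen to a glass) and thawed in media with melatonin at 1e-10 M, 3 of blastocysts vitrified without melatonin and 2 of fresh blastocysts that were never vitrified. The fresh libraries carry IVF in their titles. Strain, genotype and age are not among the labels used here, and no label says whether a library was one embryo, a pool or a culture. All p-values therefore measure the spread between these libraries, which may be technical.

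Ribosome production begins when RNA polymerase I copies the ribosomal DNA into one long precursor. Box C/D particles methylate that precursor and box H/ACA particles convert uridines to pseudouridine, each guided by small nucleolar RNAs (snoRNAs). The small subunit processome folds and cuts the part that becomes the small subunit, and a separate set of factors, among them the PeBoW complex of Pes1, Bop1 and Wdr12, matures the large subunit. Embryos of this stage grow and divide and make their own ribosomes.

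The deposited values are FPKM, which divide a gene's fragments by its length and by the library's size, so every level is relative to the rest of its library. Steps in the low values gave an estimated 5815000 to 9997000 fragments per library, and 1 FPKM of a transcript of 2 kb stood for 11.6 to 20.0 fragments. Between 14544 and 14889 genes were above 0 with melatonin and between 15749 and 16400 after vitrification alone, against 14260 and 14741 in fresh blastocysts. Mitochondrially encoded transcripts held 11.3% of summed FPKM in fresh replicate 1 and 4.24% to 6.56% in the other 7 libraries. Summed Y-linked transcripts were at 0 FPKM in vitrified replicates 2 and 3 and between 20.9 and 36.8 FPKM elsewhere. All 8 trophectoderm markers were detected and summed to 6620 to 11400 FPKM over the 8 libraries. The 8 epiblast markers summed to 149 to 169 FPKM with melatonin and 151 to 201 without it, against 31.4 and 82.9 FPKM in fresh libraries, and the part of this difference in the results below was not tested. The 1 cumulus cell marker in the table, Has2, stood at 0.344 FPKM in 1 library and at 0 in the others. Fibroblast markers summed to at most 0.168 FPKM and blood markers to between 1.45 and 7.81 FPKM. In such whole embryos, fewer cells of a type and less RNA per cell cannot be told apart.

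All 51 members were above 0 FPKM in every library, and all 51 reached 1 FPKM in at least 2 libraries, the condition for a test. Nol3 and Nol4l met it through 2 melatonin libraries alone. Mean FPKM over the 8 libraries had a median of 24.0 over the members, against 5.79 over all 10755 tested genes, and ran from 0.769 for Nol3 to 304 for Nhp2. Levels were even across libraries. For 34 of the 51 members (66.7%) the highest library was within 2-fold of the lowest, against 37.0% of all tested genes. Among genes with a mean of 5 to 500 FPKM, these shares were 77.3% of 44 members and 56.2% of 5612 genes. The summed FPKM of all members was 1597 to 1808 with melatonin, 1677 to 1892 after vitrification alone, and 1909 and 1912 in fresh libraries.

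**Figure D1:**
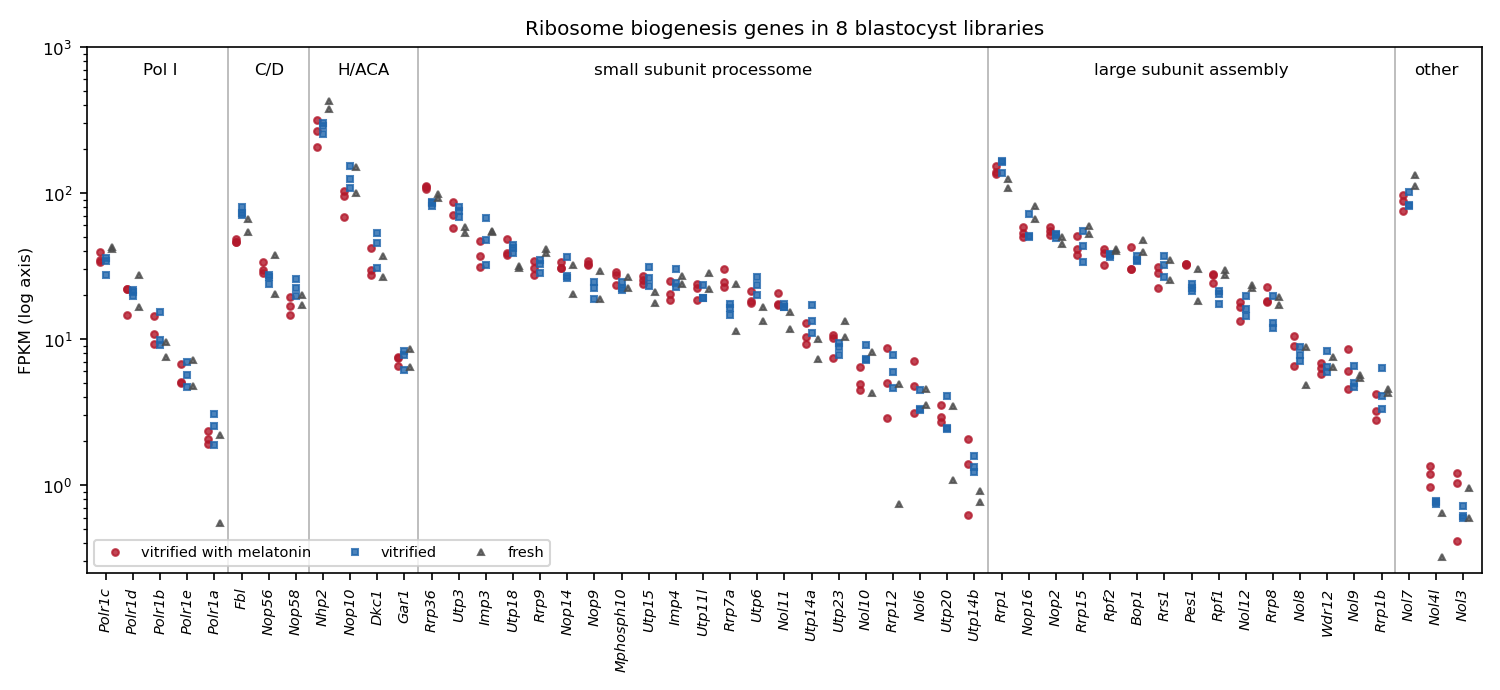
FPKM of the 51 members (log axis) in each library, by role and then by mean level, with melatonin (circles), vitrified (squares) and fresh (triangles) libraries side by side. Across the roles the members span a wide range of levels, from 0.769 FPKM for Nol3 to 304 FPKM for Nhp2 on average. The libraries of 1 gene mostly lie close together, and fresh replicate 1 is the low triangle of Polr1a, Rrp12 and Utp20.

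The 5 RNA polymerase I subunits had the same order of levels in each of the 8 libraries. Polr1c, a subunit shared with RNA polymerase III, averaged 36.2 FPKM over the 8 libraries, and Polr1d, shared in the same way, averaged 20.7. The lowest library of Polr1c, at 27.3 FPKM, lay just below the highest of Polr1d, at 27.4, so these neighbours met at their edges, and Polr1d in turn overlapped with Polr1b. Subunits used by RNA polymerase I alone were lower: Polr1b, which forms the catalytic core together with Polr1a, averaged 10.7 FPKM, Polr1e 5.77 and Polr1a 2.07. Polr1a, the largest subunit, was at 2.34, 1.92 and 2.07 FPKM with melatonin and at 3.07, 2.53 and 1.89 in vitrified libraries, against 0.554 and 2.19 in fresh ones. The low fresh value is that of replicate 1 and would correspond to 51 fragments over the longest annotated transcript, of 9216 bases.

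In the box C/D core, Fbl, the methyltransferase fibrillarin, averaged 61.0 FPKM, the scaffold protein Nop56 28.5 and its partner Nop58 19.5. The box H/ACA core spanned a far wider range. Nhp2 averaged 304 FPKM, Nop10 113, the pseudouridine synthase Dkc1 36.5 and Gar1 7.32, with no overlap of libraries between any neighbours in this order. PeBoW transcripts averaged 37.0 FPKM for Bop1, 26.6 for Pes1 and 6.70 for Wdr12. Of the other large subunit factors, Rrp1 was the highest at 141 FPKM and Rrp1b, its paralog, the lowest at 4.11. The 21 genes of the small subunit processome ran from 1.24 FPKM for Utp14b to 96.5 for Rrp36. Utp14b, a copy of the X-linked Utp14a made by retroposition, lies inside Acsl3 and shares exon bases with it on the same strand, so its value may include reads of Acsl3. The 3 members outside these roles were Nol7 at 96.4 FPKM, a nucleolar protein, Nol4l at 0.846 and Nol3, known as the apoptosis repressor ARC and not as a ribosome factor.

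Some members had features of position that their names did not fix, and no difference from other genes in these was tested. In 13 of 51 (25.5%) another protein-coding gene started within 1000 bases upstream on the opposite strand, as for 11.6% of the 9636 tested protein-coding genes. Such starts lay 3 bases apart for Nop9 and Dhrs1, 26 for Polr1c and Yipf3, and 33 for Utp15 and Ankra2. Annotated snoRNA genes lay within 3 members on the same strand (5.88%, against 1.82% of tested protein-coding genes): 5 in Nop56, 4 in Nop58 and 1 in Dkc1, all 3 themselves core proteins of snoRNA particles. For 19 members an annotated gene on the opposite strand shared exon bases, among them Nhp2 with Rmnd5b, Nop9 with Cideb, Nop56 with Idh3b, Nol7 with Ranbp9, Dkc1 with Mpp1, Bop1 with Mroh1, Wdr12 with Carf, Rrp7a with Serhl, Rrp9 with Parp3 and Pes1 with 4930556J24Rik. The protocol describes a stranded library, but whether strand was used in counting is not given in the sources used here, so reads of such partners may be mixed in.

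Promoters were compared because the E-box CACGTG, the site bound by MYC and related factors, is a known element of ribosome biogenesis genes. RefSeq promoters (GRCm38.p6, 250 bases before to 50 after a start) were found for 41 members with 49 promoters. CACGTG, which reads the same on both strands, was in 10 of the 49 (20.4%), against 7.15% of 32851 promoters of all genes and 10.4% of 9568 promoters of tested genes. GGGCGG or its reverse complement was in 61.2%, against 35.7% of all and 63.3% of tested genes' promoters. CCAAT, again on both strands, was in 34.7%, against 37.4% and 38.9%. The sequence AAGATGG of YY1 sites was in 2.04%, against 6.34% and 7.55%, and the sequence GCGCATG of NRF1 sites was in 4.08%, against 3.91% and 7.53%. Overlaps between motifs were allowed. The 9 members with CACGTG are shown with up to 12 bases on each side, 5′ to 3′ on the strand of the gene and with the motif in capitals, to let the flanks be compared.
Imp4: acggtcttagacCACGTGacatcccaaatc
Nol11: cttgagcgttcgCACGTGgtctagactcca
Nop2: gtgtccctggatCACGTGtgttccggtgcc
Pes1: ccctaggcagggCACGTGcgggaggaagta
Rpf2: aagtaatcggtaCACGTGcattcgctaa
Rrp7a: gtgcctgtgcacCACGTGtcctggaactgg
Utp14b: cgcgggcgcgggCACGTGggtggggtcgtc
Utp18: gcgagcgccggtCACGTGgcttgcggcggc
Utp20: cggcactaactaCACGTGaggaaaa
In Imp4, Nol11, Nop2, Rrp7a, Utp14b and Utp18 the motif began 121, 43, 60, 208, 63 and 20 bases before the start. In Pes1 and Utp20 it began at base 3 and 38 after the start. Rpf2 has overlapping promoters from different starts (chr10:40246990-40247289 and chr10:40246930-40247229, minus strand), and both hold the same site. That site began at base 35 after the start of the former and lay before the start of the latter. Both promoters are among the 10 of 49 counted with CACGTG. The bases on either side differed from gene to gene. The window of Pes1 lies at chr11:3963965-3963994 on the plus strand and that of Rrp7a at chr15:83122992-83123021 on the minus strand. Of these 9 members, 6 had a log2 fold change above 0 in vitrified against fresh libraries, 5 with melatonin against vitrified, and 7 with melatonin against fresh, while of all tested genes 63.5%, 43.8% and 59.2% did.

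The E-box, the CCAAT motif and the GC-rich motif GGGCGG, on either strand, occur together in the promoters of Imp4, Rrp7a, Utp18 and Utp20. That of Rrp7a, named after its values were seen, is shown in full as an example. Its motifs, each in capitals, lie in the 250 bases before the start (chr15:83122802-83123051, minus strand, GRCm38.p6).
Rrp7a promoter: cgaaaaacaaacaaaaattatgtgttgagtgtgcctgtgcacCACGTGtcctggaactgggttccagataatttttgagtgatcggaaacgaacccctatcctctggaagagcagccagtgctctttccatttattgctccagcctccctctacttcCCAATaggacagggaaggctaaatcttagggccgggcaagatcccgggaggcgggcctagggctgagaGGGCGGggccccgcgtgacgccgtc
These matches describe the letters only and say nothing of binding in these embryos.

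Vitrified and fresh blastocysts were compared to see what freezing and thawing change. None of the 51 members passed the limma test with Benjamini-Hochberg adjustment over all 10755 tested genes, where 0.865% of tested genes did, 0.762% as higher and 0.102% as lower. At an unadjusted p below 0.05 there were 10 members (19.6%, against 20.2% of all tested genes), 5 higher (9.80%, against 15.6%) and 5 lower (9.80%, against 4.56%). Vitrified and fresh libraries did not overlap for 20 members (39.2%, against 37.0% of tested genes), 10 higher (19.6%, against 26.4%) and 10 lower (19.6%, against 10.6%). The median log2 fold change was -0.02 over the members and 0.14 over all tested genes, so a member at 0 lay below most genes. Here and below, a fold change is a difference of mean log2(FPKM + 1), which understates the change of genes at low levels. In 44 of 51 members the 95% interval lay within a log2 fold change of 1 in either direction (86.3%, against 62.0% of tested genes). The 7 whose interval reached further were Dkc1, Polr1a, Rrp12, Utp14a, Utp14b, Utp20 and Utp6. Shares of intervals, here and below, were not matched for level, which had a higher median in the members than in all tested genes.

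Of the 5 members higher at an unadjusted p below 0.05, 4 were the processome genes Utp6, Utp14a, Utp15 and Utp18, and the other was Rrp1. Utp6 was at 26.6, 23.4 and 20.0 FPKM in vitrified libraries, against 13.2 and 16.5 in fresh ones. These groups did not overlap, and the log2 fold change was 0.62 ± 0.19 (SE; limma adjusted p = 0.115), the smallest adjusted p of any member in this comparison. Utp18 was at 42.2, 38.8 and 43.9 FPKM in vitrified libraries, against 30.9 and 31.8 in fresh ones (0.40 ± 0.16, limma adjusted p = 0.216). Utp3, whose unadjusted p was 0.0532, was at 68.2, 80.5 and 75.2 FPKM in vitrified libraries, against 53.5 and 58.2 in fresh ones (0.41 ± 0.19, limma adjusted p = 0.254). Again the groups did not overlap for either gene. Not all Utp genes lay this way: Utp23, named after its values were seen, was at 8.87, 9.47 and 7.72 FPKM in vitrified libraries, against 13.3 and 10.4 in fresh ones (-0.41, limma adjusted p = 0.314), wholly below them. Utp15, named after its values were seen, showed 23.2, 31.2 and 26.3 FPKM in vitrified libraries, against 17.6 and 21.0 in fresh ones (0.45 ± 0.18, limma adjusted p = 0.198). The large subunit factor Rrp1 stood at 165, 138 and 164 FPKM in vitrified libraries, against 108 and 124 in fresh ones, also without overlap (0.42 ± 0.15, limma adjusted p = 0.161).

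Utp14a and Dkc1 are the 2 members on the X chromosome. Utp14a was at 11.0, 17.0 and 13.4 FPKM in vitrified replicates 1, 2 and 3, against 7.28 and 10.0 in fresh libraries (0.61 ± 0.23, limma adjusted p = 0.187). Dkc1 was at 30.5, 53.2 and 45.3 FPKM in vitrified libraries, against 36.8 and 26.7 in fresh ones, and the groups overlapped (0.41 ± 0.27, limma adjusted p = 0.429). For both genes vitrified replicates 2 and 3 were the 2 highest of all 8 libraries. The same held for Fbl on chromosome 7 and Nop58 on chromosome 1, and the cause was not tested. Vitrified replicates 2 and 3 are also the libraries without Y-linked transcripts. Xist, the RNA that silences 1 X chromosome in females, stood at 0.68, 10.45 and 8.14 FPKM in vitrified replicates 1, 2 and 3. In the other groups it stood at 0.14 to 0.96 FPKM. With embryo sex as a covariate, a fit that rests on vitrified replicate 1 for the vitrified group, the log2 fold change was -0.04 for Dkc1, of opposite sign, and 0.33 for Utp14a, and neither passed.

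None of the 5 lower members was grouped here with the small subunit processome, and Rpf1 and Nol12 were large subunit factors like the higher Rrp1. Rpf1, a large subunit factor known from yeast, was at 20.4, 21.4 and 17.3 FPKM in vitrified libraries, against 29.9 and 27.6 in fresh ones (-0.53 ± 0.17, limma adjusted p = 0.122). Nhp2 was at 252, 301 and 288 FPKM in vitrified libraries, against 430 and 374 in fresh ones (-0.52 ± 0.19, limma adjusted p = 0.169). No vitrified library of either gene reached a fresh one. Nol7 stood at 83.0, 102 and 81.7 FPKM in vitrified libraries, against 133 and 111 in fresh ones (-0.46 ± 0.17, limma adjusted p = 0.184). Nol12, a factor of precursor processing, stood at 16.0, 19.6 and 14.4 FPKM in vitrified libraries, against 23.5 and 22.3 in fresh ones (-0.45 ± 0.19, limma adjusted p = 0.241). Both again lay wholly below fresh libraries, as did Polr1c at 27.3, 35.8 and 34.5 FPKM, against 41.7 and 43.0 in fresh libraries (-0.38 ± 0.17, limma adjusted p = 0.245).

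By role, the median log2 fold change was 0.20 over the 21 processome genes and -0.06 over the 15 large subunit factors. Above 0 were 12 of the processome genes (57.1%) and 5 of the large subunit factors (33.3%), against 63.5% of all tested genes. The polymerase subunits had a median of -0.02, and the H/ACA core one of 0.01. Median ratio scaling of the libraries, which removes the general shift of 0.14, moved the median of the members to -0.19. The 2 fresh libraries differed from each other for long transcripts. Polr1a, Rrp12 and Utp20 stood at 0.554, 0.741 and 1.08 FPKM in fresh replicate 1 and at 2.19, 4.90 and 3.50 in fresh replicate 2. Over the 33 members whose longest transcript has 2500 bases or more, fresh replicate 1 was lower by a median of -0.288 (log2), with 23 of 33 lower, while the 18 shorter members had a median of 0.0296. All tested genes showed the same split, at -0.253 and 0.0456, and its part in the fold changes was not tested. Without fresh replicate 1, the log2 fold change of vitrified against fresh was 0.25 for Rrp12 instead of 1.13, and 0.12 for Polr1a instead of 0.64. The median was then -0.10 over all members and 0.07 over all tested genes.

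**Figure D2:**
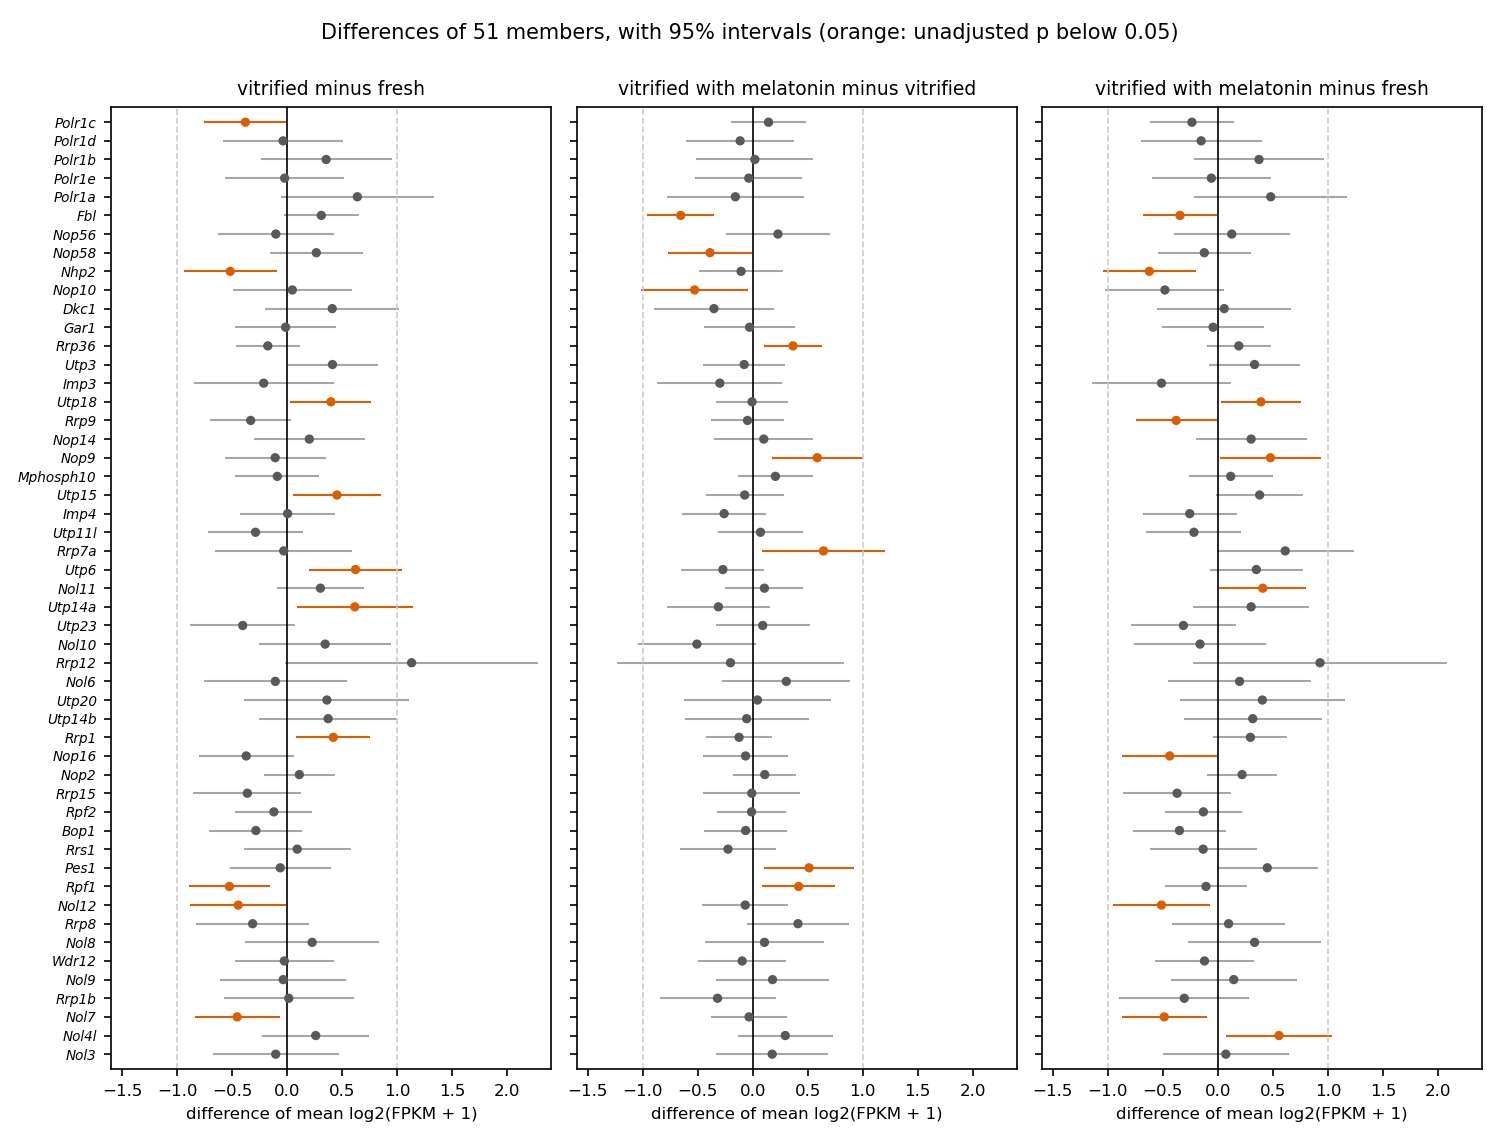
Difference of mean log2(FPKM + 1) for each of the 51 members in the 3 comparisons, with 95% intervals from limma, orange where the unadjusted p is below 0.05, and dashed lines at a difference of 1 in either direction. Most intervals lie between the dashed lines and none of the members passed after adjustment; that of Rrp12 is the widest.

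Vitrified blastocysts with and without melatonin were compared to see what the added melatonin changes. None of the 51 members passed the limma test after adjustment, where 0.139% of tested genes did, 0.0279% as higher and 0.112% as lower. At an unadjusted p below 0.05 there were 8 members (15.7%, against 14.8% of tested genes), 5 higher with melatonin (9.80%, against 4.59%) and 3 lower (5.88%, against 10.2%). The groups did not overlap for 11 (21.6%, against 24.7%), 7 higher (13.7%, against 9.30%) and 4 lower (7.84%, against 15.4%). Nol4l, among the 7 higher, entered the test only through melatonin libraries, the group in which it is high. Its place in that count is a description. The median log2 fold change was -0.03 over the members and -0.05 over all tested genes. In 47 members the 95% interval lay within a log2 fold change of 1 in either direction (92.2%, against 75.2% of tested genes). Those of Nol10, Nop10, Rrp12 and Rrp7a reached further.

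Fibrillarin had the smallest p of all members. Fbl (chromosome 7, 28169710 to 28179269, mm10) was at 46.5, 46.5 and 48.7 FPKM with melatonin, against 70.9, 73.3 and 80.8 FPKM after vitrification alone. The highest melatonin library lay far below the lowest vitrified one, and the fresh libraries, at 54.3 and 66.9 FPKM, lay between both groups. Its log2 fold change was -0.65 ± 0.13 (SE, 95% interval -0.96 to -0.35), with an unadjusted limma p of 0.000776 and an adjusted p of 0.109. Over 20 alternative settings the fold change stayed between -0.69 and -0.58. The limma adjusted p ran from 0.0212, with library weights, to 0.86, with embryo sex as a covariate. Nop58, which shares the C/D particle with fibrillarin, was at 14.6, 19.4 and 16.9 FPKM with melatonin, against 19.6, 22.3 and 25.7 without (-0.39 ± 0.17, limma adjusted p = 0.324). Nop56, the partner of Nop58 in that particle, was at 29.5, 28.5 and 33.7 FPKM with melatonin, against 27.4, 23.8 and 26.5 without (0.23 ± 0.21, limma adjusted p = 0.639). The groups were apart for all 3 core genes, with Fbl and Nop58 lower and Nop56 higher with melatonin, and none passed.

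In the H/ACA core, Nop10, the smallest of its proteins, was at 68.7, 103 and 95.5 FPKM with melatonin, against 108, 152 and 124 in vitrified libraries (-0.53 ± 0.22, limma adjusted p = 0.303). The groups lay close together but did not overlap. Nhp2 was at 207, 268 and 315 FPKM with melatonin, against 252, 301 and 288 without, Dkc1 at 27.6, 42.0 and 29.9, against 30.5, 53.2 and 45.3, and Gar1 at 6.57, 7.39 and 7.55, against 6.10, 7.78 and 8.24. These 3 overlapped between groups, with log2 fold changes of -0.10 ± 0.17, -0.35 ± 0.24 and -0.03 ± 0.18 (limma adjusted p = 0.806, 0.521 and 0.958). With embryo sex as a covariate the value of Dkc1 was 0.10, of opposite sign.

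Members higher with melatonin were of both subunits. Nop9, an RNA-binding factor of small subunit maturation known from yeast, was at 32.0, 34.4 and 32.9 FPKM with melatonin, against 24.5, 18.8 and 22.2 in vitrified libraries (0.59 ± 0.18, limma adjusted p = 0.219). Rrp36, which acts in the early cuts of the precursor, was at 112, 106 and 110 FPKM with melatonin, against 85.2, 86.5 and 81.7 without (0.37 ± 0.12, limma adjusted p = 0.223). In both genes every melatonin library lay above every vitrified one. The PeBoW subunit Pes1 was at 32.8, 32.0 and 32.6 FPKM with melatonin, against 22.2, 21.5 and 23.7 in vitrified libraries (0.51 ± 0.18, limma adjusted p = 0.256). Its partners did not share that separation: Bop1 was at 42.6, 30.0 and 30.3 FPKM with melatonin, against 37.0, 34.4 and 34.9 without, and Wdr12 at 5.76, 6.89 and 6.35, against 5.97, 8.27 and 6.40. Their log2 fold changes were -0.06 ± 0.17 and -0.10 ± 0.18 (limma adjusted p = 0.886 and 0.837), and the difference between the subunits was not tested.

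Rpf1 was at 24.1, 28.1 and 27.6 FPKM with melatonin, against 20.4, 21.4 and 17.3 in vitrified libraries (0.42 ± 0.15, limma adjusted p = 0.254), and overlapped with fresh libraries at 29.9 and 27.6. Rrp7a, a processome protein named after its values were seen, was at 22.7, 24.5 and 30.4 FPKM with melatonin, against 17.4, 14.6 and 16.4 without (0.64 ± 0.25, limma adjusted p = 0.282). The groups were apart in both genes. None of the polymerase subunits came near the threshold: the log2 fold changes of Polr1a, Polr1b, Polr1c, Polr1d and Polr1e were -0.16 ± 0.28, 0.02 ± 0.24, 0.14 ± 0.15, -0.11 ± 0.22 and -0.04 ± 0.22 (limma adjusted p of at least 0.684). Over the 21 processome genes the median was -0.01 and over the 15 large subunit factors it was -0.01. With embryo sex (Y-linked transcripts present or not) as a covariate, 1 member instead of 8 had an unadjusted p below 0.05, and that fit rests on vitrified replicate 1 for the vitrified group.

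**Figure D3:**
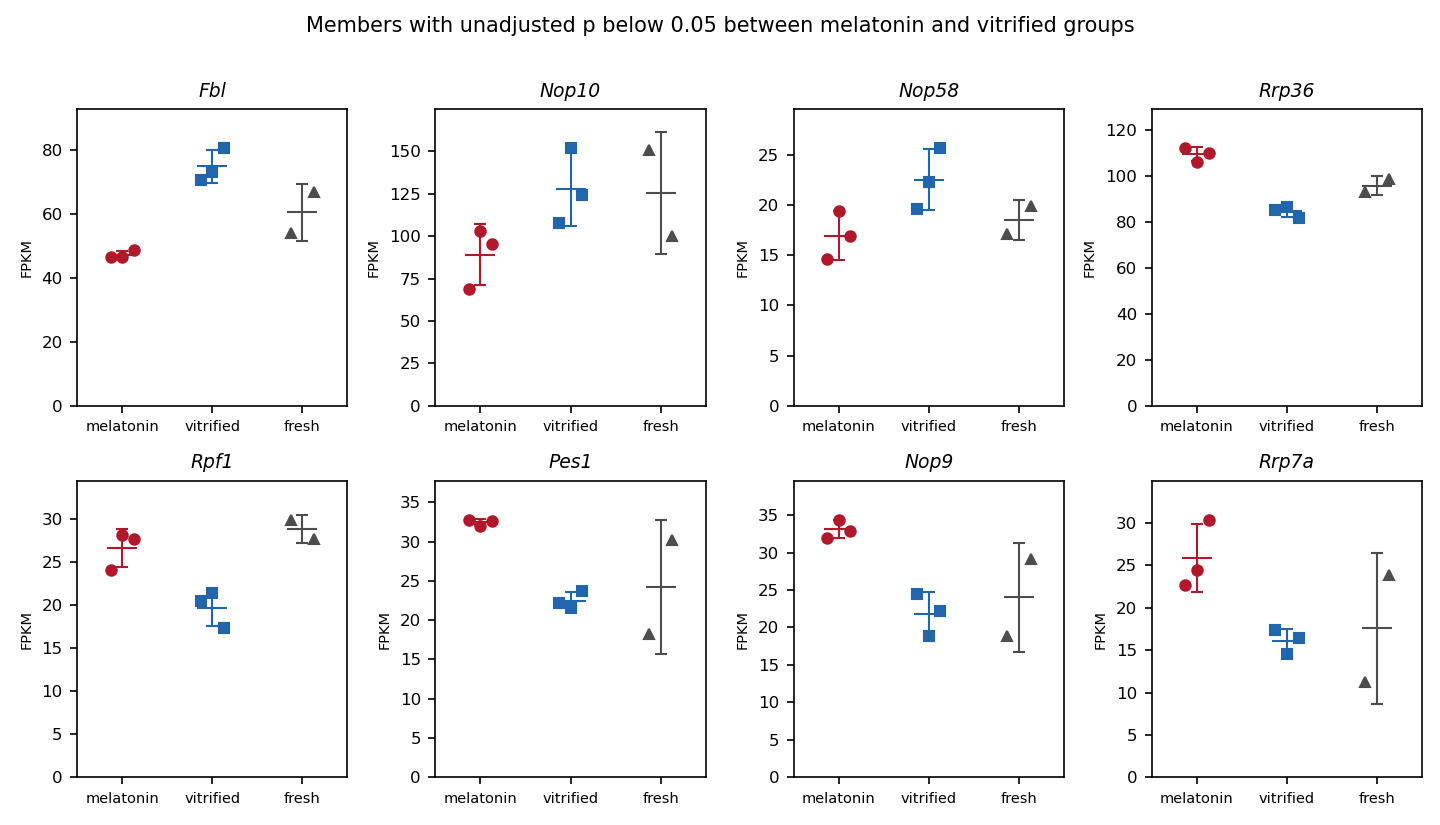
FPKM of the 8 members with an unadjusted p below 0.05 between melatonin and vitrified libraries, each point a library, with the mean and SD of each group (n = 3, 3 and 2 for melatonin, vitrified and fresh). Fbl, Nop10 and Nop58 are lower with melatonin and Rrp36, Rpf1, Pes1, Nop9 and Rrp7a higher, without overlap between these 2 groups, and the 2 fresh libraries lie apart from each other for Nop10, Pes1, Nop9 and Rrp7a.

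Blastocysts vitrified with melatonin were also set against fresh ones. This comparison shares its fresh libraries with the first and its melatonin libraries with the second, so its values are not independent of theirs. None of the 51 members passed the limma test after adjustment, and 0% of tested genes did. At an unadjusted p below 0.05 there were 10 members (19.6%, against 18.5% of tested genes), 4 higher (7.84%, against 11.6%) and 6 lower (11.8%, against 6.82%). The groups did not overlap for 20 (39.2%, against 34.3%), 10 higher (19.6%, against 20.8%) and 10 lower (19.6%, against 13.5%). The median log2 fold change was 0.07 over the members, the value of Nol3, and 0.09 over all tested genes. With only genes of a mean of at least 5 FPKM, which leaves out Nol3 and Nol4l, it was -0.05 over 44 members and 0.06 over all genes. In 43 members the 95% interval lay within a log2 fold change of 1 in either direction (84.3%, against 64.0% of tested genes).

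Nhp2 had the smallest adjusted p, with 207, 268 and 315 FPKM with melatonin, against 430 and 374 in fresh libraries (-0.62 ± 0.19, limma adjusted p = 0.164). Nol7 was at 75.6, 88.0 and 96.9 FPKM with melatonin, against 133 and 111 in fresh libraries (-0.49 ± 0.17, limma adjusted p = 0.198). Nol12 was at 16.5, 13.2 and 17.9 FPKM with melatonin, against 23.5 and 22.3 in fresh libraries (-0.51 ± 0.19, limma adjusted p = 0.219). In all 3, both vitrified groups lay below both fresh libraries. Nop16, a large subunit factor, was at 50.2, 58.6 and 53.6 FPKM with melatonin, against 66.5 and 81.3 in fresh libraries (-0.44 ± 0.19, limma adjusted p = 0.267), and Fbl had a log2 fold change of -0.35 ± 0.15 (limma adjusted p = 0.264). On the higher side, Nol4l was at 1.35, 1.20 and 0.966 FPKM with melatonin, against 0.320 and 0.647 in fresh libraries (0.55 ± 0.22, limma adjusted p = 0.227). Nol4l entered the test only through melatonin replicates 1 and 2, the group in which it is high. Its difference and its place among the 4 higher members and the 10 higher without overlap are therefore a description. Its levels are low, at 20 to 62 fragments per library if all fall on its longest annotated transcript. Utp18 was at 38.8, 48.8 and 37.5 FPKM with melatonin, against 30.9 and 31.8 (0.39 ± 0.16, limma adjusted p = 0.249), and Nop9 had a log2 fold change of 0.48 ± 0.21 (limma adjusted p = 0.258), which was 0.18 without fresh replicate 1. All of these were apart from fresh libraries without overlap. Pes1 and Rrp7a had log2 fold changes of 0.45 ± 0.21 and 0.61 ± 0.28 (limma adjusted p = 0.283 and 0.278). Among the alternatives run, they passed only without fresh replicate 2, where fresh replicate 1 alone stands for the group and 565 of all genes passed, with log2 fold changes of 0.80 and 1.12 (limma adjusted p = 0.0413 and 0.0331). Without fresh replicate 1 they were 0.10 and 0.10, with adjusted p of 0.854 and 0.883.

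**Figure D4:**
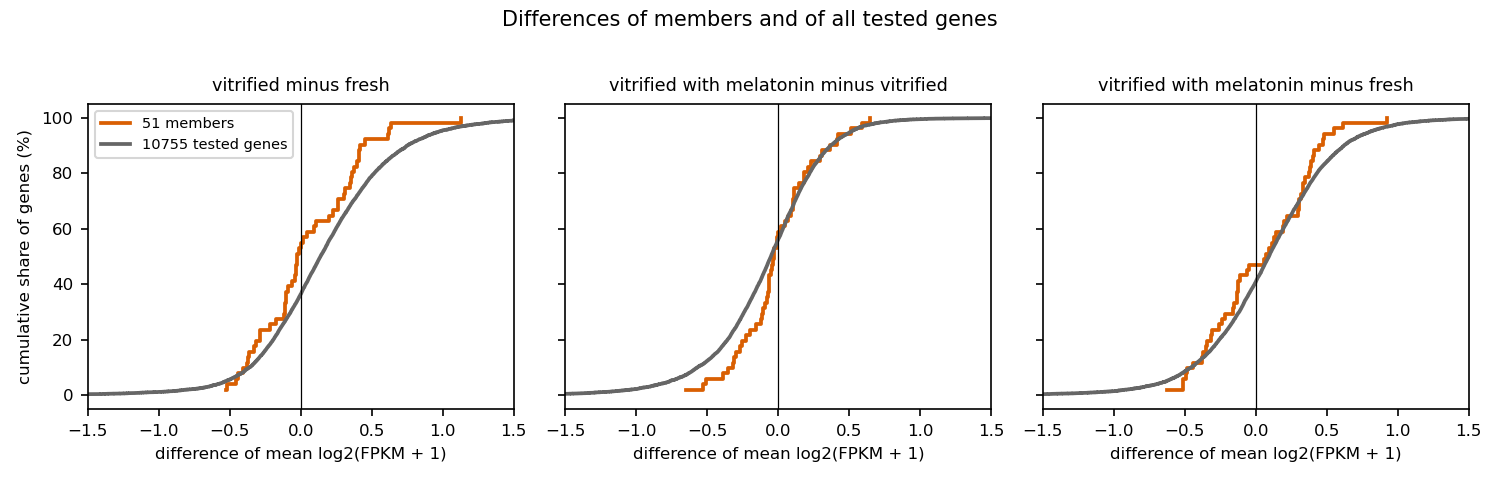
Cumulative share (%) of the 51 members and of all 10755 tested genes against the difference of mean log2(FPKM + 1), in the 3 comparisons. The members' median of -0.02 lies left of the 0.14 of all genes for vitrified minus fresh, while the 2 medians are -0.03 and -0.05 for melatonin minus vitrified, and 0.07 and 0.09 for melatonin minus fresh.

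Ribosome biogenesis genes outside the name rule were counted in the same way. A list of 121 symbols had 112 genes in the table, of which 111 were tested, and 0 passed the limma test in each of the 3 comparisons. At an unadjusted p below 0.05 there were 19 higher and 1 lower in vitrified against fresh libraries (17.1% and 0.901%, against 15.6% and 4.56% of tested genes), 0 higher and 4 lower with melatonin against vitrified (0% and 3.60%, against 4.59% and 10.2%), and 11 higher and 5 lower with melatonin against fresh (9.91% and 4.50%, against 11.6% and 6.82%). Median log2 fold changes of the list were 0.07, 0.00 and 0.05, against 0.14, -0.05 and 0.09 over all tested genes. Npm1, the abundant nucleolar chaperone nucleophosmin, was at 150, 172 and 217 FPKM with melatonin and 174, 293 and 274 in vitrified libraries, against 302 and 261 in fresh ones. Ncl, nucleolin, was at 30.4, 48.3 and 39.7 FPKM with melatonin and 51.7, 75.8 and 58.8 in vitrified libraries, against 63.8 and 21.8 in fresh ones. For Ncl every melatonin library lay below every vitrified one (-0.65 ± 0.35, limma adjusted p = 0.41), while 1 fresh library lay below all melatonin libraries and the other within the vitrified ones. Rrn3, which brings RNA polymerase I to the ribosomal DNA, was at 22.4, 20.9 and 24.2 FPKM with melatonin and 19.9, 22.7 and 22.4 in vitrified libraries, against 12.9 and 16.5 in fresh ones. The log2 fold changes of Rrn3 against fresh were 0.59 ± 0.17 with melatonin and 0.54 ± 0.17 in vitrified libraries (limma adjusted p = 0.158 and 0.126). Myc, a driver of ribosome biogenesis in many cells, was at 3.71, 7.98 and 8.02 FPKM with melatonin and 3.15, 10.8 and 9.03 in vitrified libraries, against 10.0 and 8.00 in fresh ones, with overlap throughout. Its relative Mycn, the 1 gene of the list counted as lower after vitrification, was at 28.9, 24.5 and 16.0 FPKM with melatonin and 15.9, 16.7 and 25.3 in vitrified libraries, against 37.5 and 36.3 in fresh ones. Both vitrified groups of Mycn lay below fresh libraries, with log2 fold changes against fresh of -0.69 ± 0.27 with melatonin and -0.93 ± 0.27 in vitrified libraries (limma adjusted p = 0.228 and 0.101).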

How the data were processed

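The authors deposited 1 table of FPKM values per gene and library, the unit named per the file headers, on genome build mm10 per the submitters' processing notes. In the sources used here, how reads were aligned, counted and filtered is not given. The series text names Smart-seq2, a low-input method, while the labels' protocols describe cell lines, poly(A) selection and a stranded library. Groups and replicate numbers came from the biosample descriptions. Identifiers were matched to GENCODE M21, which gave positions for 19577 of 19688 genes, and all columns were used. Fragments were estimated from steps of FPKM times length in genes with 1 annotated transcript, where 93.9% to 97.3% of low values were within 0.1 of a whole number.

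A single limma model (version 3.58.1, R 4.3.3) with a variance trend was fitted to log2(FPKM + 1) of 3 groups and 8 libraries. Genes with at least 1 FPKM in at least 2 libraries were tested, two-sided, and an adjusted p below 0.05 over all 10755 genes was a call. On simulated data with 200 changed genes, 4.18% of 1.5-fold, 34.9% of 2-fold and 87.6% of 4-fold changes were called for melatonin against vitrified. The changed genes were drawn from all tested genes and the folds set on FPKM + 1, so these shares are not those of the members. Text and plots name every member called in a comparison (0), the 3 smallest p per direction and comparison, the 2 highest members per role, PeBoW, snoRNA particle cores and polymerase subunits. The members and lists were chosen with earlier results of these data known. Tables and plots used Python 3.11.15, pandas 2.3.3 and matplotlib 3.10.9.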

Additional observations from a re-analysis of the deposited data

How the results depend on the processing

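Across 21 alternatives per comparison (scaling, filter, pseudocount, variance model, groups fitted, weights, embryo sex, blocks, threshold and each library left out), the count of members called stayed at 0 except in 2 fits. With library weights, which ran from 0.519 for each fresh library to 3.22 for vitrified replicate 3, 1 member passed with melatonin against vitrified, Fbl as lower, among 233 genes in all. With each library left out in turn, the count was 0 to 2 for melatonin against fresh (2 without fresh replicate 2) and 0 in the other comparisons. The median of the members moved beyond the spread of library medians, 0.127 (log2), only with median ratio scaling for vitrified against fresh, at -0.19. Of the fold changes of 27 named members, 1686 alternative values stayed uncalled and 2 passed, Fbl and Pes1, as given above; the cause was not tested. Depth limits the members of lowest level: Nol3 rests on as few as 8 fragments in a library.

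Melatonin and vitrified libraries of the same biosample number had correlations of deviations of 0.12, 0.07 and -0.03, against -0.12 to 0.05 for unlike-numbered ones. Same-numbered fresh libraries had -0.1 and -0.04 with melatonin libraries and -0.11 and -0.09 with vitrified ones. The labels state no pairing. Taken from means of 2 or 3 libraries, these correlations cannot decide whether libraries pair by biosample number. With that number as a block, 0 members passed in each comparison, and 5, 6 and 3 had an unadjusted p below 0.05, in the order vitrified against fresh, with melatonin against vitrified, and with melatonin against fresh. With the title number as a block 0 passed as well. Without residual spread in 1 group, as when a fresh library is left out, the lone library is assumed to vary like the others.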
